A study of Mus musculus with 16 samples.

Results

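The complement components and receptors described here are 9 genes, C1qa, C1qb, C1qc, C4b, C3, C3ar1, C5ar1, Serping1 and Cd59a, found by their symbols among the 47593 genes counted in mouse cortex. All 9 passed the filter on low counts. RNA came from the cortex of 5-month-old heterozygous 5xFAD mice in 16 libraries, labelled as 4 biological replicates in each combination of sex (female or male) and diet (vehicle or rapamycin). Every mouse carried the 5xFAD transgenes, human amyloid precursor protein and presenilin-1 with familial Alzheimer's disease mutations under the neuron-specific Thy1 promoter, on a C57BL/6-SJL hybrid background. The study's text speaks of cortical samples pooled for sequencing and gives another number per condition than the labels, so whether each library is 1 mouse is not settled, and the SDs and p-values below measure the spread between libraries. No mice without the transgenes were analysed here, so each comparison lies within amyloid-bearing cortex. Rapamycin, an inhibitor of the mTOR kinase, was given in the diet from 2 to 5 months of age, and vehicle mice ate a diet with the microencapsulation carrier alone.

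Complement is a cascade of proteins that tags targets and calls phagocytes to them. In the classical pathway, C1q binds the target and its associated proteases cleave C4 and C2, which together build the enzyme that cleaves C3. Fragments of C3 and C5 are read by receptors such as C3ar1 and C5ar1, while Serping1 (C1 inhibitor) holds back the first proteases and Cd59a blocks the final membrane pore. In the brain, C1q and the anaphylatoxin receptors are made mainly by microglia, and C4b and C3 rise in reactive astrocytes and other glia around amyloid plaques. C1q and C3 are known for marking synapses for removal by microglia.

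The counted read pairs ranged from 16393501 to 20593089 per library, and levels are given as CPM, read pairs scaled to the TMM-adjusted library size. The labels placed 11 libraries in batch 1 and 5 in batch 2, with at least 1 library of every group in each batch, and do not say what the batch is. The library labelled male rapamycin 4 went against its label, with 9935 read pairs on Xist and 0 on 4 Y-linked genes, while Xist had 1 to 17 read pairs in the remaining libraries labelled male. It was kept in its labelled group, and results that rest on it are also given without it. The cortical neuron markers were abundant, with a summed level of at least 3911 CPM over 5 genes in every library. Male vehicle 4 stood apart for choroid plexus markers, at 1917 CPM summed over 6 genes against 14.1 to 322 CPM in the others. In bulk tissue, fewer cells of a type and less RNA per cell cannot be told apart.

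The 3 C1q genes lie side by side on chromosome 4 of GRCm38 within 18.7 kb, from 136880129 to 136898803, all on the minus strand. Their promoter windows are shown because these genes moved together across the libraries. RefSeq windows (GRCm38.p6, from 250 bases before to 50 after the start) were found for 6 of the 9 genes, among them C1qb (chr4:136886151-136886450, minus strand) and C1qc (chr4:136892865-136893164, minus strand). Capitals mark GAGGAA, a core sequence bound by ETS factors such as PU.1 of the myeloid lineage, on either strand (TTCCTC on the reverse strand).
C1qb: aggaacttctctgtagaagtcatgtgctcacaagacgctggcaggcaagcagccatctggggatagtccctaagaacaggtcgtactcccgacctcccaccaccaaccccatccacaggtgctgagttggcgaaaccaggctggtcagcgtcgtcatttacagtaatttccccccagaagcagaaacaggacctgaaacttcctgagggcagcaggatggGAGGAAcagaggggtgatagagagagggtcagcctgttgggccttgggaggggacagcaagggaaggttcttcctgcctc
C1qc: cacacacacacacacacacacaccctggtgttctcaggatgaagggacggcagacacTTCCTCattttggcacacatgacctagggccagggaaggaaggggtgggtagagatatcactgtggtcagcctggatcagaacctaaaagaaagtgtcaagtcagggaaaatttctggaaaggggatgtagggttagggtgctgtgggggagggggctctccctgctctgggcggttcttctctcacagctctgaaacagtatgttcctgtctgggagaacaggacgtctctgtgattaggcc
Each window held 1 such match, which began 30 bases before the start of C1qb and 193 bases before that of C1qc. The motif was present in 3 of the 6 windows found, the third being that of Cd59a, and in 28.3% of all 32851 promoter windows. An interferon-type motif, GAAA repeated after any 2 bases, was present in 1 of the 6 windows (Cd59a) and in 3.44% of all windows. A match is a description of the sequence and not a site of binding.

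The 9 genes spanned a wide range of levels. Per kilobase of exon, C1qa had the highest mean level at 88.8 ± 29.8 CPM per kb (SD, n = 16), followed by C1qb at 77.4 ± 24.8 and C1qc at 40.9 ± 14.2 CPM per kb (SD, n = 16 each). C4b, the component cleaved after C1q has bound, averaged 12.5 ± 5.03 CPM per kb (SD, n = 16). The order from C1qb through C1qc and C4b to Cd59a was the same in 16 of 16 libraries, and C1qa lay above C1qb in 15 of 16. Cd59a averaged 3.02 ± 0.900 and Serping1 2.92 ± 1.14 CPM per kb (SD, n = 16 each), and these neighbours did not separate, with Cd59a the higher in 9 of 16 libraries. C3ar1 followed at 1.45 ± 0.459, C5ar1 at 0.639 ± 0.162 and C3 at 0.155 ± 0.0893 CPM per kb (SD, n = 16 each). C3, the component on which all pathways converge, thus rested on 4 to 36 read pairs per library, C5ar1 on 18 to 48 and C3ar1 on 43 to 175, whereas each C1q gene had at least 728.

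**Figure D1:**
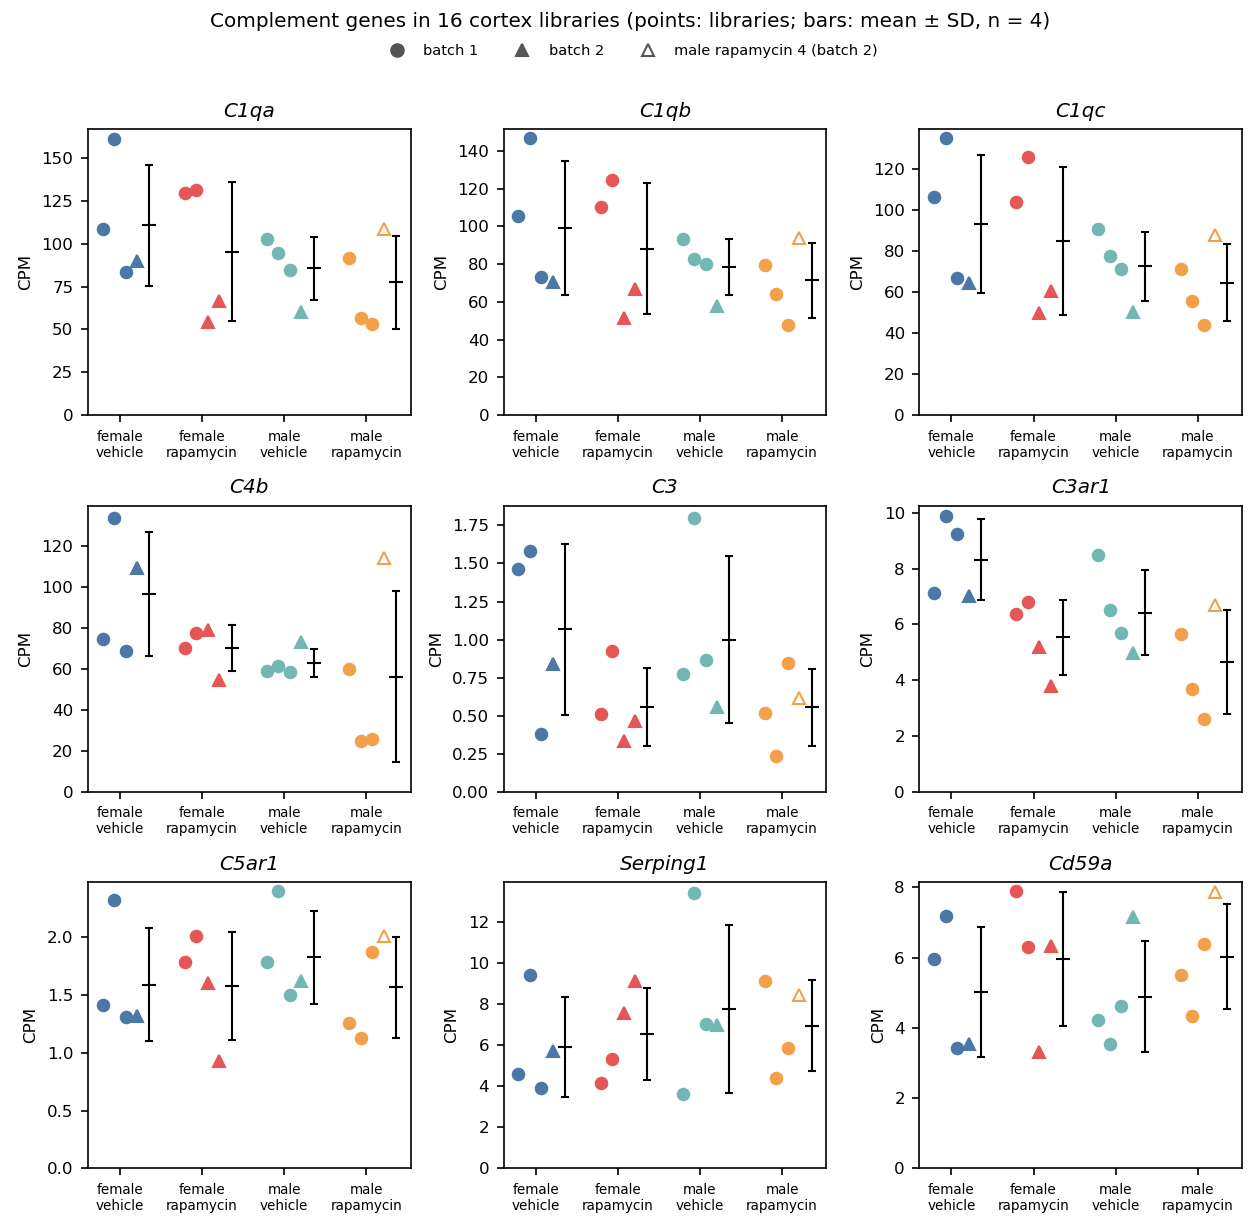
Level of each complement gene in CPM (vertical axes, from 0) in the 16 libraries by group, with circles for batch 1, triangles for batch 2, an open triangle for the library labelled male rapamycin 4, and bars for the mean ± SD (n = 4). The C1q genes share 1 profile, C3ar1 is the only one of the 9 whose female vehicle and female rapamycin libraries do not overlap, and C4b is lowest in male rapamycin 2 and 3.

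The first question of the design was whether rapamycin changed these transcripts, with both sexes in the fit. None of the 9 genes passed an adjusted p under 0.05, where 13.4% of the 16553 genes tested did (edgeR quasi-likelihood test with sex, batch and diet as terms, Benjamini-Hochberg adjustment over all genes). At an unadjusted p under 0.05 there were 2 of the 9, C3 and C3ar1, against 30.3% of all genes. The fold changes were negative for 8 genes and positive for Cd59a, with a median log2 fold change of -0.09 beside 0.015 over all genes tested. Vehicle and rapamycin libraries overlapped for all 9 genes, whereas they did not for 0.489% of all genes, and within batch 1 they overlapped for all 9 as well (no overlap for 4.59% of all genes). Male vehicle and male rapamycin libraries, and female and male vehicle libraries, also overlapped for all 9 (no overlap for 6.13% and 1.85% of all genes).

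The C1q genes encode the chains of the recognition molecule that starts the classical pathway. C1qa was at 108, 161, 83.6 and 89.7 CPM in female vehicle 1 to 4 and at 130, 131, 54.3 and 66.4 CPM in female rapamycin 1, 2, 4 and 5. It was at 103, 94.8, 84.9 and 60.4 CPM in male vehicle 1 to 4 and at 91.8, 56.6, 53.1 and 109 CPM in male rapamycin 1 to 4. Female vehicle 2 was highest, male rapamycin 3 was lowest, and the diets overlapped widely in both sexes. The log2 fold change of C1qa, rapamycin against vehicle, was -0.12 (standard error 0.21, 95% interval -0.57 to 0.32, edgeR adjusted p = 0.735). Those of C1qb and C1qc were -0.09 and -0.08 (edgeR adjusted p = 0.791 and 0.835), with intervals of -0.49 to 0.31 and -0.50 to 0.35. In females the C1q log2 fold changes were -0.17, -0.10 and -0.06, and in males -0.08, -0.08 and -0.09, for C1qa, C1qb and C1qc in this order, and 0 of them passed the test. The male values depended on single libraries, and the library labelled male rapamycin 4 had the highest C1qa level of its group. With 1 library left out they ranged from -0.52 to 0.12, -0.47 to 0.12 and -0.53 to 0.11. None of these passed (edgeR adjusted p of 0.710 or more).

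The C1q genes were lower in batch 2 than in batch 1 by 0.37, 0.41 and 0.45 on the log2 scale (edgeR adjusted p = 0.226, 0.134 and 0.131), a comparison in which 35.4% of all genes passed and 0 of the 9 did. Without the library labelled male rapamycin 4, whose C1qa level was the highest of the 5 in batch 2, these differences were -0.70, -0.68 and -0.75 and all 3 passed (edgeR adjusted p = 0.00897, 0.00619 and 0.00504). Within batch 1, C1qa averaged 106 ± 28.8 CPM with vehicle (SD, n = 6) and 92.5 ± 37.9 CPM with rapamycin (SD, n = 5). Within batch 2 it was at 75.1 CPM on average with vehicle (n = 2) and 76.4 CPM with rapamycin (n = 3). Whether the batch difference had a part in the overlap of the diets was not tested beyond the batch term.

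C4b encodes complement component 4, which C1-bound proteases cleave. It was at 74.5, 134, 68.8 and 109 CPM in female vehicle 1 to 4 and at 70.2, 77.4, 78.9 and 54.3 CPM in female rapamycin 1, 2, 4 and 5. In males it was at 58.7, 61.1, 58.5 and 72.9 CPM in vehicle 1 to 4 and at 60.03, 24.8, 25.7 and 114 CPM in rapamycin 1 to 4. The male vehicle libraries lay close together, while male rapamycin 2 and 3 were the lowest of all 16 libraries and the library labelled male rapamycin 4 was the highest after female vehicle 2. The log2 fold change was -0.41 with both sexes (standard error 0.25, 95% interval -0.95 to 0.14, edgeR adjusted p = 0.303), -0.55 in females and -0.26 in males (edgeR adjusted p = 0.384 and 0.796). Without the library labelled male rapamycin 4 it was -0.59 with both sexes (edgeR adjusted p = 0.0694). In males it ranged from -0.74 without that library to -0.019 without male rapamycin 2, and in females from -0.72 without female rapamycin 2 to -0.28 without female vehicle 2, and none of these passed. Without a filter on low counts the female difference had an edgeR adjusted p of 0.00215 at a like fold change (-0.55). That fit also called many more of all genes in females than the filtered fit did. C4b was nominally higher in female than in male vehicle libraries, with a log2 difference of 0.62 (95% interval -0.16 to 1.40, edgeR adjusted p = 0.9995), and the unfiltered fit gave 0.62 with an adjusted p of 0.00162.

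C4b has a near-identical neighbour, C4a, and reads that fit both were not counted. The most divergent 60 coding bases of the C4b-201 transcript (bases 2761 to 2820, GENCODE M21, GRCm38) and the aligned stretch of C4a-207 are shown to mark what tells them apart, with the 13 mismatched bases in capitals.
C4b-201: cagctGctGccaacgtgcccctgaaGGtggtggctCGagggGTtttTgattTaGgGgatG
C4a-207: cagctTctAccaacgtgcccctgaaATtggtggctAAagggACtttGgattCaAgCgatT
Over 5366 aligned bases the transcripts were 96.2% identical, and their longest identical run was 433 bases. Of all 100-base windows of the C4b transcripts, 15.2% also occurred in C4a, against 0.276% of the Cd59a windows shared with Cd59b and 0 for the other 7 genes. The C4b and C4a counts are therefore uncertain to the extent that shared reads were left out. C4a, named here after its values were seen, lay between 0.250 and 0.889 CPM (5 to 15 read pairs) in the 11 batch 1 libraries and between 2.62 and 3.85 CPM (48 to 66 read pairs) in the 5 batch 2 libraries, with no overlap, as for 7.21% of all genes. Its log2 difference, batch 2 against batch 1, was 2.43 (standard error 0.24, edgeR adjusted p = 3.03e-06). C4b was higher in batch 2 by 0.50 on the log2 scale, which did not pass the test (95% interval -0.07 to 1.08, edgeR adjusted p = 0.163) and was 0.14 without the library labelled male rapamycin 4. C4a made up 0.408% to 3.46% of the summed C4 level in batch 1 and 2.26% to 4.60% in batch 2, and these ranges overlapped. The highest shares of batch 1 were those of male rapamycin 2 and 3 (3.46% and 2.52%), both low in C4b. The lowest share of batch 2 was that of the library labelled male rapamycin 4 (2.26%), whose C4b level was the highest of that batch.

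**Figure D2:**
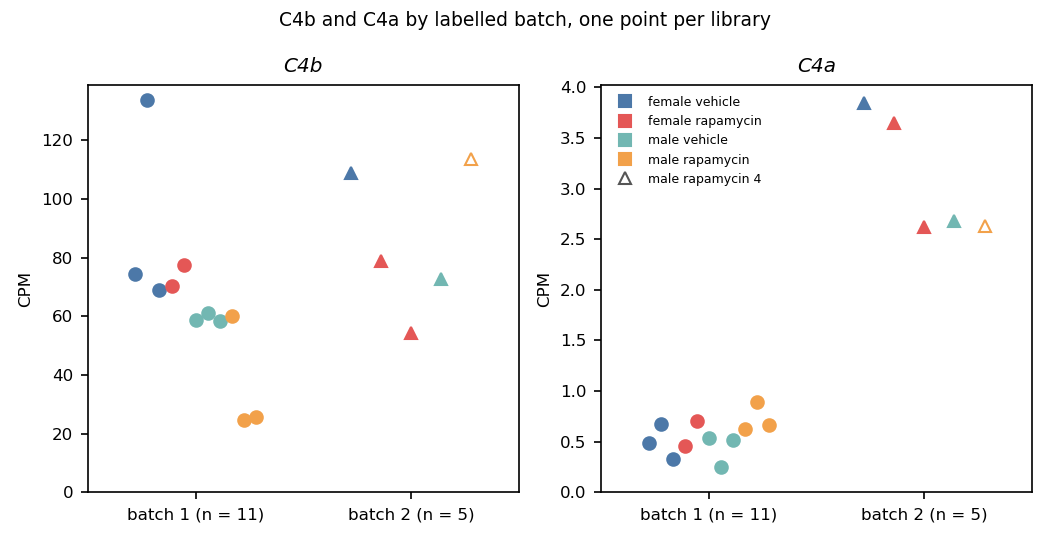
C4b (left) and C4a (right) in CPM, 1 point per library, by the batch of the labels, with colours for the groups and an open triangle for the library labelled male rapamycin 4. C4a is at 0.889 CPM or less in batch 1 and at 2.62 CPM or more in batch 2, while the batches overlap for C4b.

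C3 was near the lower limit of detection. It was at 1.47, 1.58, 0.381 and 0.842 CPM in female vehicle 1 to 4 and at 0.510, 0.924, 0.332 and 0.463 CPM in female rapamycin 1, 2, 4 and 5. The male libraries were at 0.773, 1.80, 0.865 and 0.559 CPM with vehicle and at 0.515, 0.237, 0.845 and 0.618 CPM with rapamycin. The 3 highest libraries were vehicle libraries, yet female vehicle 3 lay among the rapamycin libraries, and the diets overlapped in each sex. Its log2 fold change of -0.81 was the largest of the 9 with both sexes (standard error 0.34, 95% interval -1.53 to -0.09, unadjusted p = 0.0289, edgeR adjusted p = 0.117). It was -0.83 in females and -0.80 in males, where the edgeR adjusted p was 0.328 and 0.518. With 1 library left out, the male difference ranged from -1.06 (without the library labelled male rapamycin 4) to -0.40 (without male vehicle 2). With the mitochondrial share of each library as a covariate, the difference with both sexes was -0.057. That share was 3.27% to 5.47% with vehicle and 3.75% to 6.99% with rapamycin in batch 1, and 2.64% to 3.43% and 4.17% to 4.67% in batch 2, where the diets did not overlap.

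Of the anaphylatoxin receptors, C3ar1, the receptor for C3a, came closest to the threshold. It was at 7.13, 9.90, 9.25 and 7.03 CPM in female vehicle 1 to 4 and at 6.38, 6.80, 5.20 and 3.80 CPM in female rapamycin 1, 2, 4 and 5. Every female vehicle library lay above every female rapamycin library. No overlap of these groups, in either direction, held for 5.78% of all genes tested and for no other of the 9. The summed microglia markers separated the same libraries, at 584 to 754 CPM in female vehicle and 467 to 538 CPM in female rapamycin, with 0 of 10 markers called and a median log2 fold change of -0.33 in females, and their part in the C3ar1 difference was not tested. In males C3ar1 was at 8.50, 6.51, 5.71 and 4.98 CPM with vehicle 1 to 4 and at 5.67, 3.68, 2.59 and 6.69 CPM with rapamycin 1 to 4, and these overlapped. With both sexes its log2 fold change was -0.50 (standard error 0.19, 95% interval -0.89 to -0.11, unadjusted p = 0.0154, edgeR adjusted p = 0.0801). It was -0.55 in females (95% interval -1.11 to 0.004, edgeR adjusted p = 0.220) and -0.44 in males (95% interval -0.999 to 0.13, edgeR adjusted p = 0.515). The male value ranged from -0.79 without the library labelled male rapamycin 4 to -0.21 without male rapamycin 3. The difference with both sexes passed under DESeq2 (-0.50, adjusted p = 0.0439) and without the library labelled male rapamycin 4 (-0.62, edgeR adjusted p = 0.0300), while its adjusted p ranged up to 0.158 with any other library left out. Over all alternative fits its adjusted p ranged up to 0.879. Within batch 1, C3ar1 averaged 7.83 ± 1.64 CPM with vehicle (SD, n = 6) and 5.02 ± 1.81 CPM with rapamycin (SD, n = 5), and within batch 2 it was at 4.98 and 7.03 CPM with vehicle and averaged 5.23 CPM with rapamycin (n = 3).

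C5ar1, the receptor for C5a, lay between 0.925 and 2.40 CPM in all 16 libraries. Its log2 fold change with both sexes was -0.09 (95% interval -0.55 to 0.37, edgeR adjusted p = 0.816), and the groups overlapped throughout. The inhibitors did not pass either. Serping1, whose product inhibits C1r and C1s, lay between 3.63 CPM in male vehicle 1 and 13.4 CPM in male vehicle 2, with a log2 fold change of -0.08 (95% interval -0.62 to 0.47, edgeR adjusted p = 0.871). Its diets did not overlap within batch 2 (5.71 and 6.99 CPM with vehicle, 7.58, 8.44 and 9.10 CPM with rapamycin), as for 26.2% of all genes, but they overlapped in batch 1. Cd59a, a membrane-anchored inhibitor of the terminal pore, lay between 3.32 and 7.91 CPM, with a log2 fold change of 0.27 (95% interval -0.17 to 0.71, edgeR adjusted p = 0.408).

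**Figure D3:**
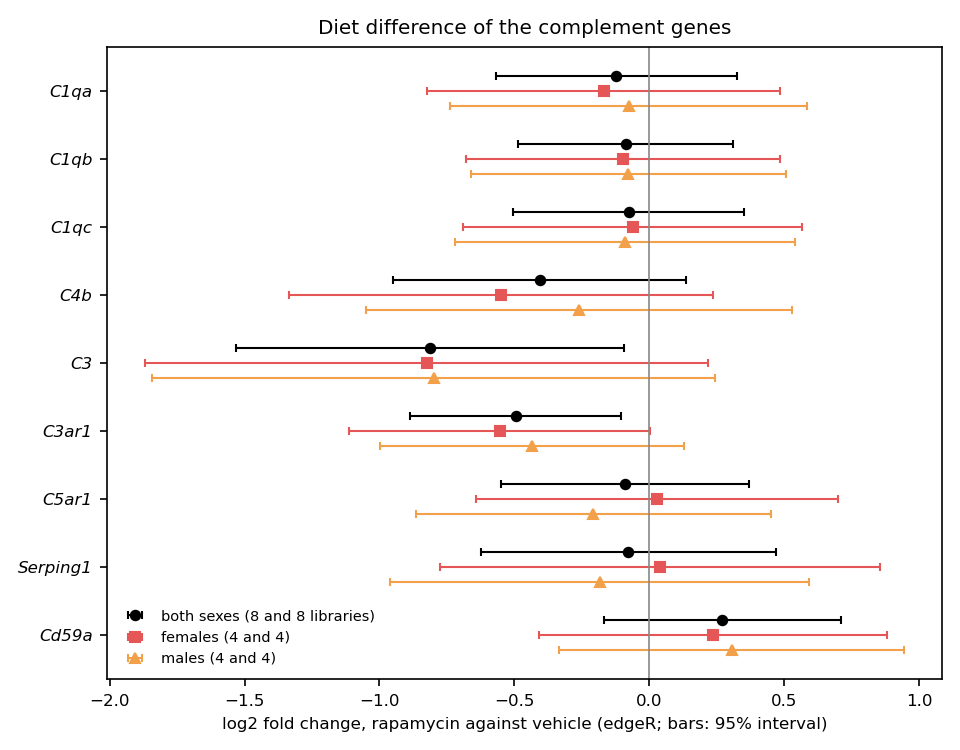
Log2 fold change of each complement gene (horizontal axis), rapamycin against vehicle, with its 95% interval from edgeR, for both sexes (black), females (red) and males (orange). With both sexes the intervals of C3 (-1.53 to -0.09) and C3ar1 (-0.89 to -0.11) lie below 0, those of the other 7 genes include 0, and none of the 9 passed after adjustment.

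The next questions were whether the diet difference depended on sex and whether the sexes differed on the vehicle diet. In females 0 of the 9 genes passed, as 0.0121% of all genes did (2 of 16553), and in males 0 of the 9 and 0% of all genes passed. These low counts came with 23.0% and 11.9% of all genes at an unadjusted p under 0.05, and DESeq2 called 1487 genes in females and 18 in males, none of them among the 9. The interaction of sex and diet was called for 0 of the 9 and 0% of all genes by edgeR, with 2.08% at an unadjusted p under 0.05 and 0 genes called by DESeq2. For C3ar1 the female minus male difference in log2 fold change was -0.12 (95% interval -0.91 to 0.67) and for C4b -0.29 (95% interval -1.39 to 0.81), so neither a sizeable sex difference nor its absence was shown. Their signs were not stable, with ranges of -0.33 to 0.30 and -0.51 to 0.27 when 1 library was left out. Without the library labelled male rapamycin 4, the male log2 fold changes were -0.79 for C3ar1 and -0.74 for C4b. In females the main fit gave -0.55 for each. Between female and male vehicle libraries 0 of the 9 and 0% of all genes passed in edgeR, 3.45% had an unadjusted p under 0.05 and DESeq2 called 9 genes, none of them among the 9. Even Xist did not pass in that edgeR fit, at 491 to 1024 CPM in female vehicle and at most 1.01 CPM in male vehicle libraries. The 0 calls therefore do not show that the sexes are alike. With 1 library left out, edgeR called 0 to 6 of all genes. C3ar1 was nominally higher in female than in male vehicle libraries by 0.38 on the log2 scale (95% interval -0.17 to 0.93), and the libraries overlapped.

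Across libraries the genes fell into those that moved together and those that did not. Of the 36 pairs of the 9 genes, 10 were correlated at an adjusted p under 0.05, all positively (Pearson's r of log2 CPM with batch means removed, two-sided permutation within batches with 100000 resamples, Benjamini-Hochberg over 36 pairs). These were the 10 pairs among C1qa, C1qb, C1qc, C4b and C3ar1. C1qb and C1qc had r = 0.99 and Spearman's rho = 1.00 (permutation p = 1e-05 for each, the smallest the resamples can give, adjusted p = 1.2e-04 for each). C1qa had r = 0.97 with C1qb and 0.96 with C1qc. Without the 2 libraries farthest from the median these 3 values were 0.99, 0.95 and 0.93, and in the 11 batch 1 libraries alone 0.99, 0.97 and 0.97. C1qa to C1qb stood at a ratio of 0.886 to 1.27 in CPM in all 16 libraries, although C1qb itself ranged from 47.8 to 147 CPM.

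C4b followed C1qa (r = 0.90, rho = 0.90, permutation p = 4e-05 and 3e-05, adjusted p = 2.9e-04 and 2.7e-04) and C3ar1 (r = 0.90, rho = 0.81, permutation p = 4e-05 and 3.1e-04, adjusted p = 2.9e-04 and 0.00159). Without the 2 farthest libraries these r were 0.82 and 0.80, and in batch 1 alone 0.94 and 0.89. C3ar1 with C1qb and with C1qc had r = 0.73 and 0.72 (permutation p = 0.00311 and 0.00272, adjusted p = 0.0112 and 0.0109) and rho = 0.63 and 0.64 (permutation p = 0.0144 and 0.0127, adjusted p = 0.0519 and 0.0508). Without the 2 farthest libraries these fell to 0.44 and 0.47, so they rest on those libraries. For the remaining 26 pairs r lay between -0.13 (C3ar1 and Cd59a) and 0.59 (C3 and C5ar1, permutation p = 0.0164, adjusted p = 0.0536, rho = 0.60, permutation p = 0.0194, adjusted p = 0.0604). Low counts of C3 and C5ar1 limit any r they can show.

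**Figure D4:**
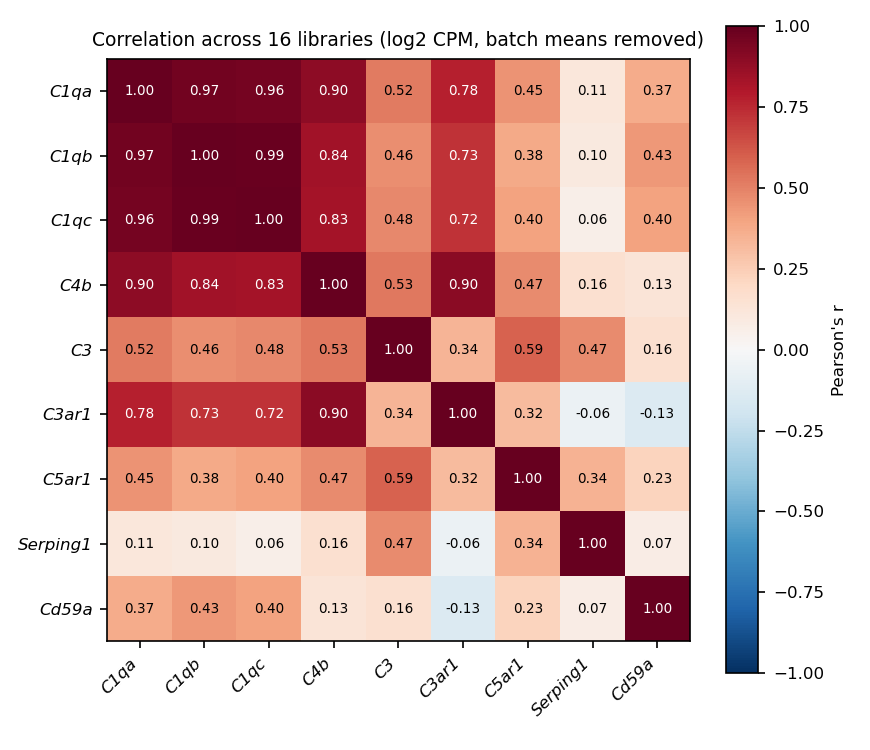
Pearson's r between the 9 complement genes over 16 libraries (log2 CPM with batch means removed), from -1 (blue) to 1 (red). C1qa, C1qb, C1qc, C4b and C3ar1 form a block with r of at least 0.72, and the values of Serping1 and Cd59a with that block lie between -0.13 and 0.43.

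The genes outside the complement system whose pattern was most like each member differed by member. They were ranked by r over 16 libraries after sex, batch and diet were removed, among 14659 genes averaging 1 CPM or more, and since they are the highest of so many they are given as a description. C1qa was most like Trem2 (r = 0.98), Tyrobp (0.97) and Ctsd (0.96), and without the 2 farthest libraries these were 0.97, 0.97 and 0.94. Trem2 is a microglial receptor that signals through Tyrobp, and Ctsd encodes a lysosomal protease. C1qb was most like Npc2 (0.97), Tyrobp (0.97) and Lgmn (0.96), and C1qc like Tyrobp (0.97), Trem2 (0.96) and Npc2 (0.95). C4b was most like Gfap (0.98), Serpina3n (0.95) and Ptpn6 (0.95), the former pair being marker genes of reactive astrocytes and Ptpn6 a phosphatase of blood and microglial cells. C3ar1 was most like Irf8 (0.94), a transcription factor of microglia, Rasal3 (0.92) and Anxa3 (0.91).

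The remaining members had other neighbours. Serping1 was most like Ptgds (0.92), Efemp1 (0.92) and Islr (0.89), and Ptgds encodes a prostaglandin synthase abundant in the leptomeninges. Cd59a was most like 3110040N11Rik (0.86), Dlx5 (0.86), a transcription factor of the GABAergic lineage, and 9530068E07Rik (0.85). C3 was most like Pold2 (0.88), Gnas (0.86) and Spata5l1 (0.84), which fell to 0.71, 0.64 and 0.63 without the 2 farthest libraries, and C5ar1 was most like Kcnn1 (0.87), P3h2 (0.87) and Cthrc1 (0.84). None of these neighbours passed the diet test with both sexes, and their edgeR adjusted p lay between 0.0814 (Cthrc1) and 0.994 (Gnas).

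**Figure D5:**
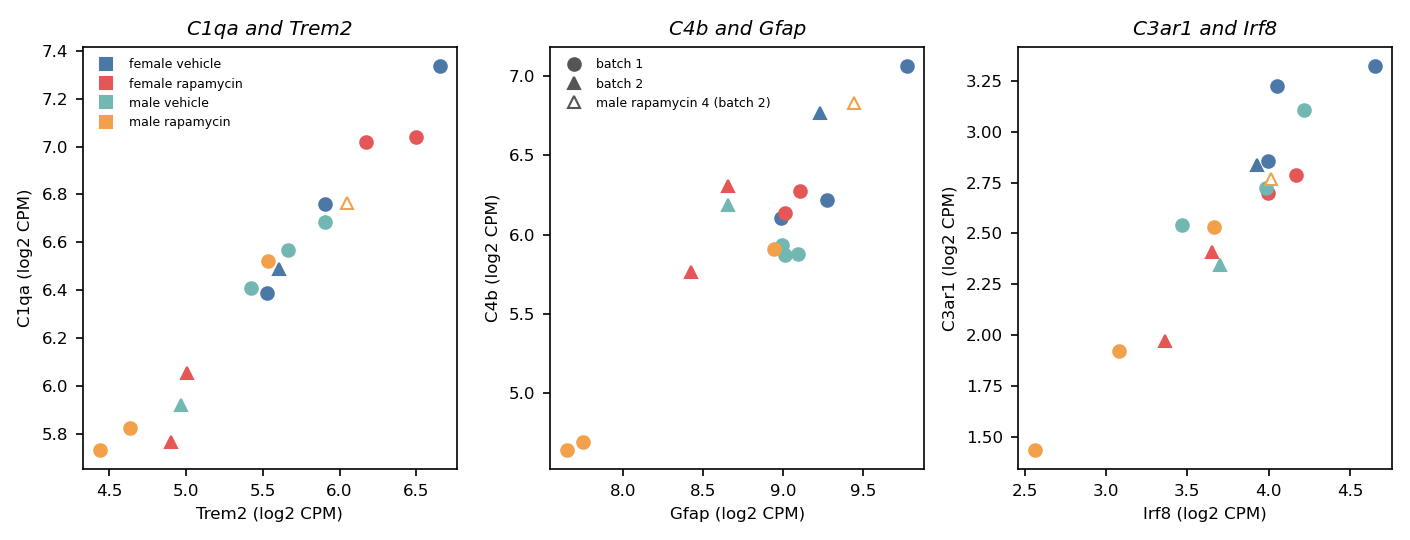
Levels in log2 CPM of C1qa against Trem2 (left), C4b against Gfap (middle) and C3ar1 against Irf8 (right), 1 point per library, with colours for the groups, triangles for batch 2 and an open triangle for the library labelled male rapamycin 4. Points rise along a line in each panel, and male rapamycin 2 and 3 lie at the low end of all 3.

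Marker lists show what else moved with these genes. The summed level of 10 microglia markers ranged from 467 to 754 CPM with vehicle and from 311 to 620 CPM with rapamycin, with 0 of 10 called and a median log2 fold change of -0.19. By sex, the sums did not overlap between the diets in females, as given with C3ar1, and did in males, at 467 to 585 CPM with vehicle and 311 to 620 CPM with rapamycin. For 10 plaque-associated microglia genes the ranges were 823 to 1720 and 587 to 1295 CPM, with 0 of 10 called and a median of -0.23. For 6 reactive astrocyte genes the sums were 468 to 982 and 276 to 788 CPM, with 0 of the 5 tested called and a median of -0.16. The lowest microglia sum was that of male rapamycin 2 (311 CPM), followed by male rapamycin 3 (378 CPM), the libraries that were also lowest in C4b and C3ar1. The summed C1q level was 0.341 to 0.588 of the microglia sum with vehicle and 0.332 to 0.709 with rapamycin, a ratio that averaged 0.456 ± 0.0847 and 0.490 ± 0.140 (SD, n = 8 each). It was 0.332 to 0.469 in batch 2 and 0.341 to 0.709 in batch 1. Leptomeningeal and fibroblast markers summed to 85.2 to 226 CPM with vehicle and 65.2 to 210 CPM with rapamycin, with 0 of 7 called. Of the other lists, 1 of 7 astrocyte markers rose, with a median log2 fold change of 0.25. Among cortical neuron markers 1 of 5 fell (median -0.09), and among choroid plexus markers 1 of 6 fell (median -1.42). Over all genes 6.55% rose and 6.86% fell. The sums of these lists overlapped between the diets. Markers of neutrophils and monocytes summed to at most 11.6 CPM, and 0 of 5 passed the filter. The part of cell numbers in the levels of the 9 genes was not tested.

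Beyond these 9 genes, the other 47 complement genes listed gave 29 that passed the filter. With both sexes 1 of the 29 rose and 2 fell, where 6.55% of all genes rose and 6.86% fell, and the median log2 fold change was -0.12. The 7 initiation genes, the 3 genes of the C3 convertases and their amplification and the 2 terminal genes that passed the filter had 0 calls. Of the 6 receptor genes 0 passed, and all 6 log2 fold changes were negative with a median of -0.26. Among the 11 regulators, Clu rose and Csmd1 and Csmd2 fell.

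Clu encodes clusterin, an abundant astrocyte chaperone that also holds back the terminal complex. It had a lowest, median and highest level of 700, 815 and 953 CPM with vehicle and 834, 1041 and 1139 CPM with rapamycin, and the diets overlapped. Its log2 fold change was 0.32 (standard error 0.08, edgeR adjusted p = 0.0226), and the call was lost without female rapamycin 1 or 2 or male vehicle 4, with adjusted p up to 0.0563. Csmd1 and Csmd2, large membrane proteins of neurons with complement-inhibiting domains, had log2 fold changes of -0.42 and -0.45 (standard error 0.13 for each, edgeR adjusted p = 0.0375 and 0.0370). Each lost its call in 9 of the 16 fits that left out 1 library, with adjusted p up to 0.0970 and 0.0874 without male vehicle 4. All 3 calls were lost in batch 1 alone (0.29, -0.27 and -0.29) and with the slope of expression on exon length as a covariate (0.12, -0.018 and -0.18). That slope differed between the diets, at 0.0264 on average with vehicle and -0.0737 with rapamycin in batch 1, and 0.0974 and 0.00511 in batch 2. Within batch 1, Csmd2 lay between 46.1 and 56.3 CPM with vehicle and between 35.6 and 44.2 CPM with rapamycin. Such separation held for 4.59% of all genes, and Clu and Csmd1 overlapped there. In males Csmd2 did not overlap between the diets, as for 6.13% of all genes. Within batch 2 none of the 3 overlapped, as for 26.2% of all genes. Of the other regulators with high levels, Susd4 and Vtn differed by 0.12 and 0.15 on the log2 scale, which did not pass (edgeR adjusted p = 0.368 and 0.506).

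Itgam and Itgax, chosen after their values were seen, encode the alpha chains of the receptors that bind C3 fragments on microglia. Itgam lay between 33.2 and 41.4 CPM in female vehicle and between 23.5 and 28.9 CPM in female rapamycin libraries, and Itgax between 7.67 and 11.1 and between 4.83 and 6.91 CPM. In females neither gene overlapped between the diets, as for C3ar1, for the summed microglia markers and for 5.78% of all genes, and both overlapped in males. Female vehicle libraries also lay above male vehicle libraries for Itgam without overlap, as for 1.85% of all genes in either direction, whereas for Itgax these groups overlapped. With both sexes their log2 fold changes were -0.33 and -0.84 (edgeR adjusted p = 0.109 and 0.0636). Without male rapamycin 1, that of Itgam was -0.49 (edgeR adjusted p = 0.0107), and its adjusted p ranged up to 0.207 without another library. Without the library labelled male rapamycin 4, that of Itgax was -1.02 (edgeR adjusted p = 0.0305), and under DESeq2 it was -0.85 (adjusted p = 0.0138). Its edgeR adjusted p ranged up to 0.113 without another library. Over all alternative fits the adjusted p ranged up to 0.964 for Itgam and 0.911 for Itgax.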

How the data were processed

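Cortical poly(A) RNA in 16 libraries was read by paired-end sequencing. Reads were trimmed by the authors with Trimmomatic 0.39 (quality checks with FastQC 0.11.9), aligned to GRCm38 (mm10) with HISAT2 2.2.1 and assigned to Ensembl gene models by featureCounts 2.0.3 as read pairs, per their methods and the file headers. The deposited counts are read pairs per gene, not normalized, counted without strand and without pairs that mapped to several places. The same counts, repeated by the authors in 1 table per group, differed in 0 of 761488 cells.

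Groups and batches were those of the labels. Genes were kept by filterByExpr in edgeR 4.0.16 (minimum count 10), which left 16553 of 47593 genes with 99.9% of the read pairs, and 17345 genes had no count. TMM factors and the robust quasi-likelihood test were used, with terms sex, batch and diet, or the 4 groups and batch, and Benjamini-Hochberg adjustment over all genes tested. Calls had an adjusted p under 0.05, and the biological coefficient of variation was 0.186. Log2 CPM values had a prior count of 2. The p-values measure the spread between libraries of a group, which are labelled as biological replicates but may hold pooled samples. On simulated counts with 200 changed genes among 16553, the test recovered 169 with both sexes (69 of 91 at a log2 change of 1 and 100 of 109 at 1.5, with 10 false calls). Of 200 changed genes it recovered 127 in females, 149 between the sexes on the vehicle diet and 108 for the interaction. For the interaction 43 of 102 were recovered at a log2 change of 1. Smaller changes and the male comparison were not simulated. The simulated counts held no batch difference and no library at odds with its label, so these recoveries may overstate what the test finds in the real libraries.

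The 9 members, the other complement genes, the marker lists and the tests were chosen with earlier results of these data known. Named were all 9 members and, of the other complement genes, those called with both sexes and, since fewer than 5 were, the 5 of highest mean CPM (Clu, Susd4, Vtn, Csmd1 and Csmd2), besides the 3 genes most correlated with each member. Alternatives were DESeq2 1.42.0, median-ratio size factors, no filter, no batch term, a replicate block, batch 1 alone, the exon length slope or mitochondrial share as a covariate, a fold change of at least 1.5 and leaving out each library. Python 3.11.15 with NumPy 2.4.6 was used for correlations and matplotlib 3.10.9 for figures. Motifs and 100-base windows were searched in RefSeq promoter windows and GENCODE M21 transcripts. The group tables added nothing and were used only for this check.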

Additional observations from a re-analysis of the deposited data

Results flagged for a closer look

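Single libraries were set against the other 3 of their group for the 9 members and the 5 most abundant other complement genes. Of 56 gene and group combinations, 5 had a library farther from its group than Dixon's criterion allows, where chance flags about 1 in 20. C5ar1 was at 2.32 CPM (41 read pairs) in female vehicle 2, beside 1.31 to 1.42 CPM in the other 3 female vehicle libraries. Vtn, a plasma and vascular protein that inhibits the terminal complex, was at 116 CPM in male vehicle 2, beside 64.9 to 70.4 CPM. Csmd1 was at 142 CPM in male vehicle 4, beside 64.0 to 70.0 CPM. Csmd2 was at 115 CPM in female vehicle 4, beside 46.7 to 52.5 CPM, and at 111 CPM in male vehicle 4, beside 46.1 to 56.3 CPM. Female vehicle 4 and male vehicle 4 are the only batch 2 libraries of their groups, and Csmd1 and Csmd2 were higher in batch 2 by 0.68 and 0.88 on the log2 scale (edgeR adjusted p = 0.00112 and 2.62e-04).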

How the results depend on the processing

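The number of the 9 members called, 0 in each comparison, became 1 with both sexes under DESeq2 (C3ar1) and without both the library labelled male rapamycin 4 and male vehicle 4 (C3ar1, -0.62, adjusted p = 0.0457), the latter an alternative chosen after seeing the data, in which the batch difference called 3 (C1qa -0.77, C1qb -0.79 and C1qc -0.85). Without a filter on low counts it became 1 in females and 1 between the sexes on the vehicle diet (C4b in both). In females that fit also called many more of all genes, as given below, so the change was not particular to C4b. For the sexes on the vehicle diet, the share of all genes called without the filter is not given here. With each library left out it ranged from 0 to 1 with both sexes and from 0 to 3 for batch, each time changed by leaving out the library labelled male rapamycin 4. The count of correlated pairs ranged from 10 to 12 with each library left out.

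Signs changed in the following settings, and no value with a changed sign passed the test. In batch 1 alone the female log2 fold changes of C1qa, C1qb and C1qc were 0.15, 0.12 and 0.17, and the interactions of C3ar1 and C4b 0.38 and 0.37. With the exon length slope as a covariate, that of Cd59a with both sexes was -0.11 and the batch differences of C1qa, C1qb and C1qc 0.021, 0.041 and 0.028. With the mitochondrial share, those of C5ar1 and Serping1 with both sexes were 0.045 and 0.60 and that of C3 in females 0.035. Without both the library labelled male rapamycin 4 and male vehicle 4, female C1qc was 0.027 and the interactions of C3ar1 and C4b 0.30 and 0.23. With each library left out, C1qb, C1qc and Serping1 with both sexes ranged from -0.23 to 0.011, -0.23 to 0.026 and -0.18 to 0.13, C1qa, C1qb and C1qc in females from -0.32 to 0.031, -0.26 to 0.11 and -0.26 to 0.13 and in males from -0.52 to 0.12, -0.47 to 0.12 and -0.53 to 0.11, and the interactions of C3ar1 and C4b from -0.33 to 0.30 and -0.51 to 0.27. The causes were not tested. Of 910 refits of single genes, 819 kept direction and side of the threshold.

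Over all genes with both sexes, 2220 calls became 3086 under DESeq2, 1279 in batch 1 alone, 145 without a batch term, 1081 without both the library labelled male rapamycin 4 and male vehicle 4, 354 with a fold change of at least 1.5, and 0 with either covariate (932 and 1298 genes at an unadjusted p under 0.05), and ranged from 724 to 3360 with each library left out. In females 2 became 1487 under DESeq2, 1678 without the filter and 1399 in batch 1 alone. The labels tie the shared replicate numbers to no animal, litter or day, and not every same-numbered pair had deviations correlated above 0.1 (18 of 21 did, and 7 of 21 with batch removed), so the numbers were not used as a pairing. As a hint from the data, 12 of 15 libraries went best with their own number. With the replicate block, 0 of the 9 genes passed with both sexes, 1327 genes passed, and Csmd1 (-0.35) and Csmd2 (-0.42) lost their calls. Depth limits C3 and C5ar1 most.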

Other observations

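Some complement genes outside the 9 differed between the batches of the labels. Of the 29 that passed the filter, 9 were higher in batch 2 and 0 lower, where 3137 of 16553 genes were higher and 2717 lower. Besides C4a, which is described above, the batches did not overlap for Cfp, Masp2 and C8g, chosen after their values were seen, so that 4 of the 29 did not overlap, as for 7.21% of all genes. Cfp encodes properdin, which stabilises the alternative pathway convertase, and lay between 2.74 and 8.004 CPM in batch 1 and between 8.03 and 15.7 CPM in batch 2 (log2 difference 1.21, edgeR adjusted p = 3.95e-04). C8g, a subunit of the terminal component C8, lay between 0.816 and 2.18 CPM in batch 1 and between 2.52 and 3.39 CPM in batch 2 (0.88, edgeR adjusted p = 0.00543). Masp2, a protease of the lectin pathway, had 0 to 8 read pairs in batch 1 and 12 to 19 in batch 2 (1.85, edgeR adjusted p = 0.00432). Markers of border macrophages were higher in batch 2 for 3 of 5 genes, and markers of leptomeningeal cells and fibroblasts for 3 of 7, with a median log2 difference of 1.13 and 0.52. Their part in these differences was not tested.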
